A study of Arabidopsis thaliana with 6 samples.

Results

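The transcripts described here gave some of the brightest signals in wild-type stage 15 flowers of Arabidopsis thaliana and kept only a small part of that signal in flowers that overexpress miR159a. They are probe sets, the groups of short probes that together read 1 transcript on the array. They were chosen by the deposited signals themselves: a wild-type mean of 1000 or more, an overexpressor mean of at most 25% of it, and every wild-type array above every overexpressor array. Of 22746 probe sets other than controls, 1171 had a wild-type mean of 1000 or more and 49 met the whole rule. Setting aside 6 genes that met it (AT3G17060, AT5G07430, AT3G05610, AT3G07820, AT5G47000 and RALFL26) left 43. A seventh gene named in the rule, RALFL25, had a wild-type mean of 671.9 and did not reach the limit. Because the difference between the groups chose these probe sets, it is given below as a description without a test.

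The study compared 3 arrays of flowers from plants that carry a transgene overexpressing miR159a with 3 arrays of flowers from Columbia plants, the wild type, 1 RNA sample per array. Both groups were taken at stage 15, when the flower is open and the stigma stands above the anthers. Replicates carry a letter, a to c, in both groups. The sources used here do not give the promoter of the transgene, the number of lines or whether a letter is a separate plant, so a p-value here reflects the spread between arrays alone, and that spread may be technical.

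MicroRNA miR159 pairs with transcripts of MYB transcription factors of the GAMYB type, which act in anthers. Pollen grains ripen inside the anther and store transcripts for the fast growth of the pollen tube, many of them for enzymes that loosen or rebuild pectin in the tube wall, for secreted proteins and for the actin cables along which wall material travels. RNA of whole flowers mixes all floral tissues, so fewer cells of a type and less RNA per cell cannot be told apart in these data.

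The signal of every array is on one deposited linear scale, with array medians between 85.25 and 96.95. Signals of different probe sets depend on their probes as well as on the transcript, so the text compares the same probe set between arrays and does not rank transcripts by amount. In all 3 control transcripts both a arrays lay above the rest, clearly so for ubiquitin alone. Its signal at the 5′ end was 0.736 of that at the 3′ end on overexpressor array a and 0.628 on wild-type array a. On the other 4 arrays it was 0.275 to 0.380. For GAPDH the ratios were 1.17 and 1.05, against 0.638 to 0.974, the last on wild-type array c. For actin they were 0.0969 and 0.102, close to the 0.0953 and 0.0966 of the c arrays. Overexpressor array a also read 3079.6 for a 25S ribosomal RNA control, where the other 5 arrays read 11.1 to 51.2. Their part in the results below was not tested.

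A platform annotation names 1 gene for 17 of the 43 probe sets. It gives several genes for 3, which are called here by their probe set numbers, and 23 are unnamed here. Of the 43, 4 are of the kind that can read more than 1 transcript (name ending in _s_at), or 9.30% of the 43, against 4.66% of all probe sets other than controls. The named genes lie on all 5 chromosomes, with 7 on chromosome 3, 5 on chromosome 5, 2 each on chromosomes 1 and 2, and 1 on chromosome 4.

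The 43 kept a median of 8.06% of their wild-type mean signal in the overexpressor, which is 12.4-fold lower, with a range of 4.16% to 24.9%. Without overexpressor replicate b the median was 3.89%, and without overexpressor replicate c it was 11.2%. At most 10% was left for 30 of them, and over 20% for 2. On the log2(signal + 16) scale the difference, overexpressor minus wild type, ran from -4.74 to -2.22 with a median of -3.81. In the test across all probe sets 40 of the 43 were called lower (43 with the letters as a block), where 2.17% of the 17059 tested probe sets were called lower. The groups did not overlap for any of the 43, as the rule required, and this held in the same direction for 7.17% of all 22746 probe sets. Since the rule used this contrast, nothing is read from either count.

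**Figure D1:**
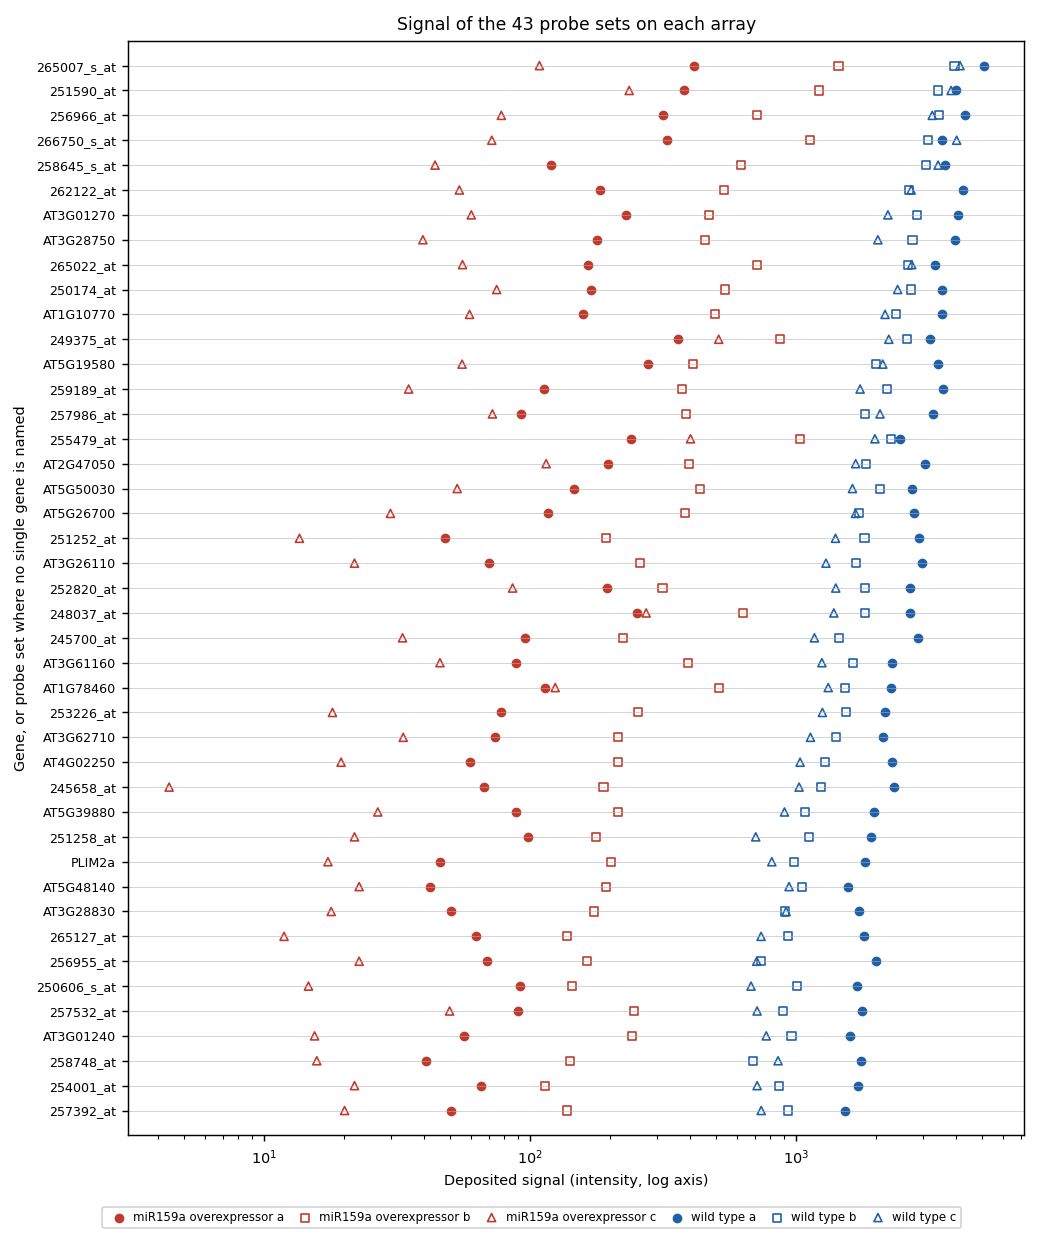
Deposited signal (log axis) of each of the 43 probe sets on the 3 overexpressor arrays (red) and the 3 wild-type arrays (blue), with a filled circle for letter a, a square for b and a triangle for c, ordered by wild-type mean. The red squares of overexpressor array b lie nearest to the wild-type points in every row, and in most rows the red triangles of array c lie farthest away.

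The 43 lay at the low end of the bright probe sets, as the rule required, and the 6 genes set aside lay in the same range (5.60% to 8.05%). Among the 1171 with a wild-type mean of 1000 or more, 1113 kept over 50% of it in the overexpressor, while 49 kept at most 25% and 9 lay between 25% and 50%. The other 1122 had a median of 102%. Just inside the limit of 25% lay 255479_at with 24.9% and 249375_at with 21.7%. Just outside it lay ARL, with 27.2%, and AT5G45880, with 27.8%. Just inside the limit on brightness lay 257392_at, with a wild-type mean of 1070, and 254001_at, with 1098, and just outside it 257121_at, with 973, and AT5G61720, with 951, which kept 4.88% and 5.62%. The limit of 1000 thus cuts through a run of similar probe sets: with a minimum of 500 the rule picked 95, and with 2000 it picked 20.

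**Figure D2:**
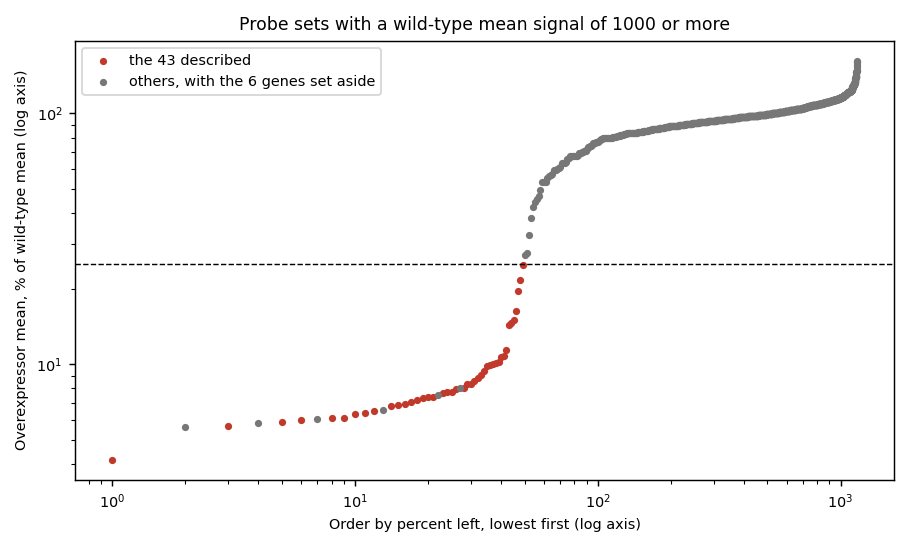
Overexpressor mean as a percentage of the wild-type mean (log axis) for the 1171 probe sets with a wild-type mean of 1000 or more, in order from the lowest (log axis), with the 43 in red, the others (including the 6 genes set aside) in grey and the limit of 25% as a dashed line. Few points lie between 25% and 50%, and most lie near 100%.

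Among the 17 members with 1 named gene are 2 of families whose enzymes degrade pectin. AT3G01270 encodes a pectate lyase, an enzyme that cuts the pectin backbone. Its signal was 229.9, 470.7 and 60.2 on overexpressor arrays a, b and c, against 4075, 2859 and 2220 on the wild-type arrays, with means of 253.6 ± 206 in the overexpressor and 3051 ± 943 in wild type (SD, n = 3 each). AT5G48140, of the polygalacturonase family, which also cuts pectin, had 42.1, 193 and 22.8 in the overexpressor, against 1576, 1053 and 943 in wild type, and kept 7.22%. Both genes were lowest on overexpressor array c, and the lowest wild-type array lay 4.72-fold above the highest overexpressor array for AT3G01270 and 4.89-fold above it for AT5G48140.

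A further 4 members encode small proteins of the family that holds inhibitors of invertase and of pectin methylesterase, the enzyme that prepares pectin for cutting and stiffening. AT1G10770 read 157.8, 496.7 and 59.3 in the overexpressor, against 3553, 2389 and 2166 in wild type. AT2G47050 read 196.9, 396.5 and 115.1, against 3060, 1842 and 1679. AT5G50030 read 147.0, 437.1 and 53.3, against 2736, 2080 and 1633. All 3 kept between 8.80% and 10.8% of the wild-type mean, with array b highest among the overexpressor arrays. AT4G02250 kept less, with 59.6, 214.2 and 19.5 in the overexpressor, against 2299, 1286 and 1038 in wild type, or 6.34% of the mean. AT2G47050 lies beside one of the genes that the annotation gives for 266750_s_at, with 0 annotated genes between them in the TAIR10.1 gene table.

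Other members belong to families that act on sugars or that include secreted proteins. AT3G62710 encodes a glycosyl hydrolase and had 73.9, 213.7 and 33.4 in the overexpressor, against 2122, 1419 and 1135 in wild type, or 6.86% of the mean. AT5G19580 is related to glyoxal oxidases, secreted enzymes that make hydrogen peroxide. It had 278.1, 410.3 and 55.6, against 3420, 1999 and 2123, or 9.87%. AT5G26700 belongs to the cupin superfamily, which includes the secreted germin-like proteins, and had 117.4, 382 and 29.9, against 2773, 1732 and 1676, or 8.56%. For each of these 3 genes the overexpressor values differed several-fold between arrays, and all lay below its lowest wild-type value, as the rule required.

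AT3G28750 and AT3G28830 belong to a group of related genes of unknown function on chromosome 3 that share the domain DUF1216, with 7 protein-coding genes between them in the TAIR10.1 table. AT3G28750 read 179.4, 457.1 and 39.6 in the overexpressor, against 3963, 2746 and 2035 in wild type. AT3G28830 read 50.6, 174.1 and 17.9, against 1725, 908 and 919. They kept 7.73% and 6.83% of their wild-type means, close to the median of the 43. AT3G01240 and AT3G01270 have 2 protein-coding genes between them. AT3G01240 kept 9.39%, with 56.4, 241.6 and 15.5 in the overexpressor, against 1601, 964 and 774 in wild type.

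Proteins that act inside the cell are also among the 43. PLIM2a, a LIM protein of pollen that bundles actin filaments, read 46.0, 201.4 and 17.4 in the overexpressor, against 1814, 985 and 812 in wild type, and kept 7.33%. AT3G61160, a protein kinase of the shaggy-related (GSK3) family, read 88.4, 394.5 and 45.9, against 2293, 1635 and 1253, and kept 10.2%. AT1G78460, of the SOUL family of haem-binding proteins, kept more, 14.7%, with 113.8, 514.0 and 124.5 in the overexpressor, against 2275, 1533 and 1324 in wild type. It was one of 4 members whose lowest overexpressor array was a and not c.

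The 5 probe sets that kept least were 251252_at, 245658_at, AT3G26110, 258748_at and 265127_at. The lowest, 251252_at, read 47.9, 193.4 and 13.6 in the overexpressor, against 2903, 1813 and 1410 in wild type, which left 4.16%. On 245658_at the signals were 67.4, 189.1 and 4.4, against 2337, 1244 and 1029, with 5.66% left. AT3G26110 read 70.0, 259.6 and 21.9 in the overexpressor, against 2980, 1682 and 1298 in wild type, with 5.90% left. The reading of 4.4 was the lowest of any of the 43 on any array and lay below the pseudocount of 16, as did 6 of the 43 readings on overexpressor array c and none on a or b. On 258748_at the signals were 40.8, 141.0 and 15.8, against 1764, 692 and 858, and on 265127_at they were 62.9, 137.4 and 11.9, against 1803, 937 and 740. The last named gene of the 43, AT5G39880, read 88.8, 214.6 and 26.8 in the overexpressor, against 1975, 1084 and 906 in wild type, and kept 8.33%.

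The 5 that kept most were 255479_at, 249375_at, 248037_at, 251590_at and 265007_s_at, none with a gene name here. On 255479_at the overexpressor arrays read 240.4, 1033 and 401.8, against 2473, 2279 and 1983 in wild type. On 249375_at they read 359.3, 872.4 and 512.9, against 3207, 2610 and 2237, and on 248037_at 252.8, 633.9 and 273.7, against 2698, 1822 and 1390. These 3 and AT1G78460 were the only ones of the 43 with a higher signal on overexpressor array c than on a. On overexpressor array c, 255479_at, 249375_at and 248037_at had 20.3%, 22.9% and 19.7% of the signal of wild-type array c, while the median of the 43 was 2.62%. The first of them, nearest to the limit, no longer met the rule when overexpressor replicate a, overexpressor replicate c, wild-type replicate a or wild-type replicate b was left out.

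Among the 12 highest wild-type means, several probe sets were nearly level between the wild-type arrays. On 265007_s_at the overexpressor arrays read 415.9, 1448 and 108.6, against 5087, 3950 and 4144 in wild type, and on 251590_at 378.9, 1226 and 236.3, against 4004, 3428 and 3837. On 266750_s_at they read 326.6, 1132 and 71.9, against 3548, 3137 and 4026, the only one of the 43 with its highest wild-type signal on array c. On 258645_s_at they read 120.2, 622.6 and 44.0, against 3639, 3079 and 3428. These 4 had ratios of wild-type array a to c from 0.881 to 1.23, where the median of the 43 was 1.87 and the highest ratio 2.80. Another 4 of the 12 had ratios from 1.22 to 1.56. On 256966_at the signals were 315.9, 713.2 and 78.1 in the overexpressor, against 4316, 3464 and 3259 in wild type. On 262122_at they were 184.3, 538.0 and 54.3, against 4247, 2671 and 2715. Both had the order b, a, c in the overexpressor. On 265022_at they were 164.7, 711.9 and 55.8, against 3325, 2640 and 2728. On 250174_at they were 170.4, 540.5 and 75, against 3543, 2707 and 2415. All 4 kept between 8.06% and 10.7%.

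The rest of the 43 were 250606_s_at, which the annotation gives to several genes, and 10 unnamed probe sets (259189_at, 257986_at, 252820_at, 245700_at, 253226_at, 251258_at, 256955_at, 257532_at, 254001_at and 257392_at). Their percentages left lay between 6.11% for 254001_at and 11.4% for 257532_at.

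The arrays of one group differed in the same way for nearly all members. In the overexpressor, array b was highest for 43 of 43 and array c lowest for 39 of 43. In wild type, array a was highest for 42 and array c lowest for 33. The other 1122 bright probe sets had another order, with the highest overexpressor signal on array c for 612 and the lowest on a for 791, and with the highest wild-type signal on c for 725. Relative to the mean of their own group, the 43 had medians of 66.3%, 206% and 23.7% on overexpressor arrays a, b and c and of 136%, 88.4% and 72.8% on the wild-type arrays. The other bright probe sets had medians of 84.4%, 104% and 110% on the overexpressor arrays and of 90.2%, 98.5% and 110% on the wild-type arrays. After removal of the group means on the log2 scale, the correlation between 2 of the 43 over the 6 arrays had a median of 0.95, against 0.44 for pairs of other bright probe sets. All pairs share the same 6 arrays and their scaling, and members of the 43 were picked for a common difference, so these correlations describe the arrays and carry no test.

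Within each lettered pair of arrays the signal left had a median of 4.34% for a, 20.2% for b and 2.62% for c. All 43 kept at most 25% on the a pair and on the c pair, and 33 did so on the b pair, where the range was 10.7% to 45.3%. Members that kept more on 1 pair tended to keep more on the others, with Spearman's rho over the 43 of 0.54 between a and b, 0.57 between a and c, and 0.46 between b and c (Pearson's r 0.74, 0.69 and 0.67). The 3 pairs share no array but share the probes, and these values carry no test.

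**Figure D3:**
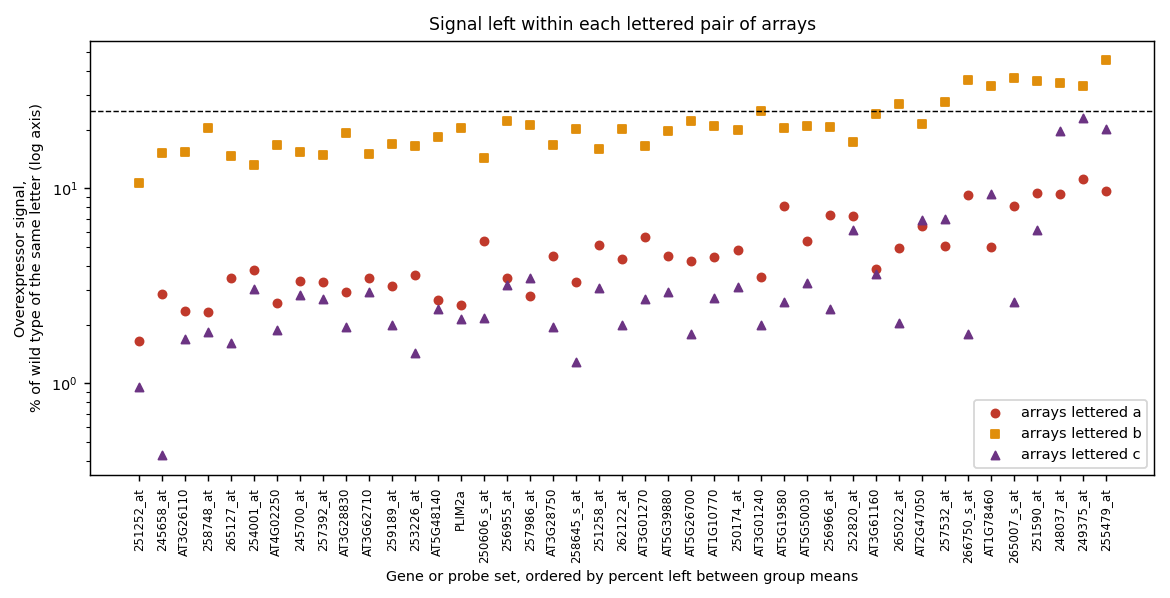
Overexpressor signal as a percentage of the wild-type signal with the same letter (log axis), for the 43 ordered by the percentage between group means, with circles for a, squares for b, triangles for c and the 25% limit dashed. The squares lie above both other symbols for every probe set, and 10 of them lie above 25%.

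The rule was also applied with the arrays of 1 letter left out. With the b arrays left out, the rule picked 45 probe sets from the a and c arrays. On the b pair all 45 were lower in the overexpressor, with a median of 20.2% left, and 34 of them kept at most 25%, where 3.39% of all 1179 probe sets bright on the other wild-type arrays did. With the a arrays left out it picked 27, all of which kept at most 25% on the a pair, against 3.38% of 1182. With the c arrays left out it picked 49, all of which did so on the c pair, against 4.98% of 1145. These shares include the picked probe sets themselves. In all, 40 bright probe sets kept at most 25% on the a pair, 40 on the b pair and 57 on the c pair. Each view rests on 1 array per group and has no replicate check. The rule was set with earlier results of these data known, and 43 of the 45 and 42 of the 49 were among the 43. These views are therefore a description and no independent support. All 27 picked without the a arrays were among the 43, and 16 of the 43 were lost, among them the 13 with the lowest wild-type means.

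The 43 probe sets are 0.189% of those on the array other than controls. Their summed signal was 0.113%, 0.309% and 0.0514% of the sum over all those probe sets on overexpressor arrays a, b and c, against 2.09%, 1.37% and 1.20% on the wild-type arrays. The means were 0.158% ± 0.135 in the overexpressor and 1.56% ± 0.474 in wild type (SD, n = 3 each). All 43 stood at percentile 97.4 or higher of wild-type array a, 91.9 or higher of b and 91.5 or higher of c. Their median place was percentile 51.0 of overexpressor array a, 83.3 of b and 37.0 of c. Above the median of the array lay 23 on overexpressor array a, all 43 on b and 8 on c. The other bright probe sets carried 40.5% ± 4.62 of the summed signal in the overexpressor and 39.8% ± 3.37 in wild type, a difference below the spread between arrays.

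**Figure D4:**
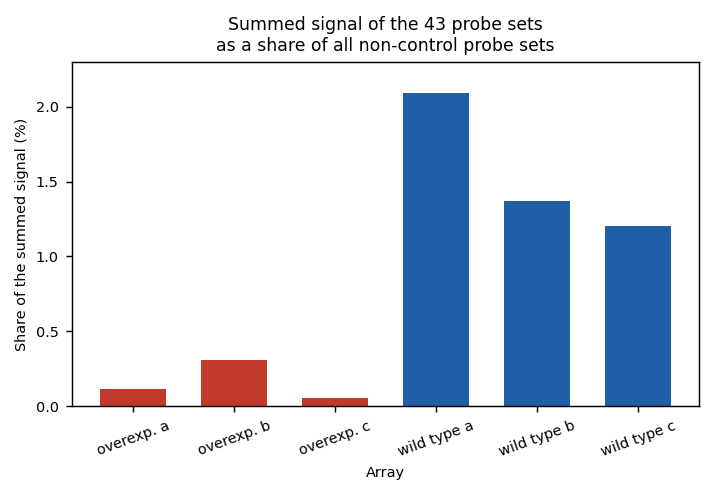
Summed signal of the 43 probe sets as a share of the summed signal of all probe sets other than controls (%), 1 bar per array, with overexpressor arrays in red and wild-type arrays in blue. The overexpressor bars lie between 0.0514% and 0.309% and the wild-type bars between 1.20% and 2.09%.

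Most tested genes with known roles in ripening pollen and the pollen tube that are not among the 43 were lower in the overexpressor too. The lists were chosen with earlier results of these data known, so their counts are no independent support for the 43. Of 67 genes in 4 late pollen lists, 20 had a probe set that names 1 gene, and 2 of these, AT3G01270 and PLIM2a, are among the 43. Of the other 18, all tested, 14 fell, 0 rose and 4 did not pass (limma with Benjamini-Hochberg adjustment over all probe sets, threshold 0.05), with a median log2 fold change of -2.05 against 0.04 over all tested probe sets. The count was 0 without wild-type replicate b and 0 without both arrays lettered a, where 14 of the 16 then tested passed an unadjusted p of 0.05 in each case. It was 5 without overexpressor replicate a, 5 without overexpressor replicate c and 6 without wild-type replicate a.

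The relatives of the named members give the closest comparison. The 3 other listed pectate lyases of pollen, AT59, AT5G15110 and AT2G02720, fell by 3.90 (SE 0.48), 3.69 (SE 0.50) and 3.21 (SE 0.40) on the log2 scale, with limma adjusted p of 0.0107, 0.0121 and 0.0107. AT59 read 10.3, 56.3 and 13.3 in the overexpressor, against 988.5, 541.9 and 313.6 in wild type, the same order of wild-type arrays as AT3G01270. PLIM2b, the relative of PLIM2a, fell by 1.30 (SE 0.25, adjusted p = 0.0391) and read 131.5, 140.4 and 117.6 in the overexpressor, against 493.2, 335.7 and 239.7 in wild type. It kept 36.4%, where PLIM2a kept 7.33%, and its overexpressor arrays were nearly level. The difference between both genes was not tested, and the call for PLIM2b was lost in 10 of 13 alternatives (adjusted p from 0.0104 to 0.173).

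By role, 7 of 7 further wall genes fell, among them LRX8 to LRX11, which encode leucine-rich repeat extensins of the pollen tube wall. Of these LRX9 (AT1G49490) fell most, by 3.67 (SE 0.54, adjusted p = 0.0141), and LRX11 (AT4G33970) least, by 2.19 (SE 0.41, adjusted p = 0.0353). The call for LRX11 held in 4 of 12 alternatives (adjusted p from 0.0177 to 0.149) and that for LRX10 (AT2G15880) in 3 of 13 (0.00143 to 0.246). Of the rest, 5 of 8 signalling genes fell, 2 of 2 further cytoskeleton genes fell, and the 1 transport gene, CHX19, stood at -0.28 log2 (adjusted p = 0.774). ANX1, ANX2, BUPS1 (AT4G39110) and BUPS2 (AT2G21480), receptor kinases that keep the growing pollen tube from bursting, had log2 fold changes of -1.69, -3.28, -3.19 and -1.90 (limma adjusted p of 0.0258, 0.0119, 0.0107 and 0.0230). The call for ANX1 held in 3 of 7 alternatives (adjusted p from 0.0135 to 0.140) and that for BUPS2 in 5 of 12 (0.00495 to 0.134). ACT12, which encodes an actin of pollen, fell by 1.82 (adjusted p = 0.0300), a call that held in 3 of 12 alternatives (0.00269 to 0.134). The signalling genes that did not pass were the MADS-box genes AGL65, AGL66 and AGL104, with -0.12, -0.91 and -0.77. MRI, a pollen tube kinase gene (AT2G41970), fell by 1.21 (SE 0.20, adjusted p = 0.0206) and read 10, 17 and 9.2 in the overexpressor, against 65.6, 40.5 and 42.5 in wild type. The call held in 5 of 12 alternatives (adjusted p from 0.0139 to 0.103). The pseudocount exceeds the overexpressor means of MRI (12.1), ANX1 (3.67) and ACT12 (7.20). It also exceeds those of AGL66 (14.1) and AGL104 (10.9), which did not pass. The log2 values of all these genes therefore understate the differences.

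**Figure D5:**
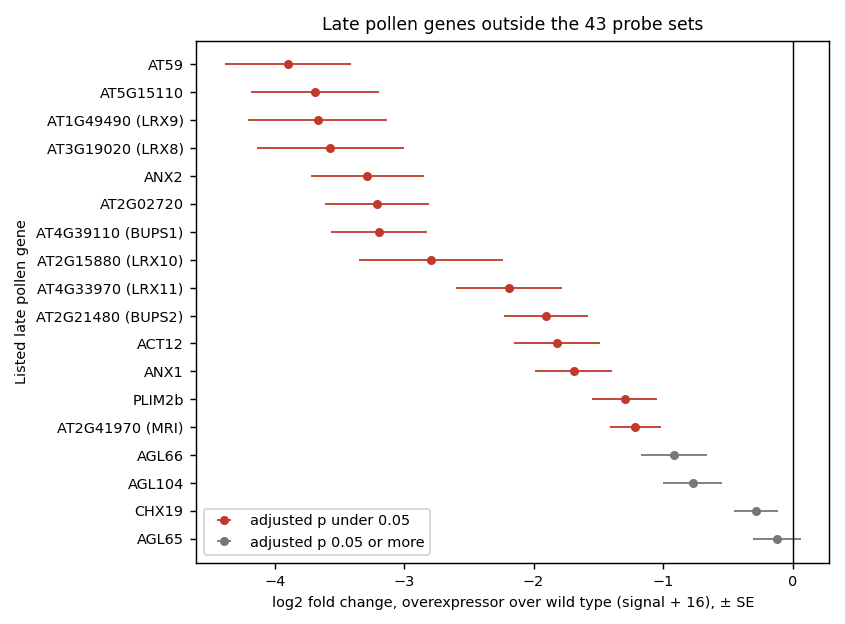
Log2 fold change of signal + 16, overexpressor over wild type, with its standard error, for the 18 tested late pollen genes outside the 43, in red where the adjusted p was under 0.05 and in grey otherwise. The 14 red points lie between -3.90 and -1.21, and the 4 grey points are the 3 MADS-box genes and CHX19.

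Marker genes of other tissues are set beside these values. The 4 green tissue genes with a probe set summed to between 10123 and 14314 on the overexpressor arrays, against 7600 to 11268 in wild type. The sum was higher in the overexpressor in 3 of 3 lettered pairs, but nearly level in the b pair (11505 against 11268). In that pair PSAN and PSBY were higher in the overexpressor, and LHCB4.2 and PSAE-1 were lower. In limma 0 of 4 passed, adjusted or at an unadjusted p of 0.05, with or without the letters as a block (median 0.27 log2). The 7 carpel and ovule genes summed to between 825 and 937, against 711 to 858, and 0 of the 6 tested passed in limma by any of these measures (median 0.10 log2). Both tapetum genes with a probe set, A9 (AT5G07230) and AMS, were dim and untested, with sums of 8.3 to 14.3, against 9.5 to 20. The sperm cell gene MGH3 read 2.2, 9.3 and 2.7 in the overexpressor, against 79.3, 28.6 and 24.7 in wild type, and was untested as dim. From the anther opening and filament list, ADPG1 alone had a probe set under its name in the annotation used. It encodes a polygalacturonase that helps anthers and fruits open, and it rose by 1.60 (SE 0.19, adjusted p = 0.0107), with 84.9, 49.2 and 66.6 in the overexpressor, against 13.1, 11.0 and 8.6 in wild type. This call held in 11 of 12 alternatives and was lost without wild-type replicate b (adjusted p = 0.0637). All wild-type readings of ADPG1 lay below the pseudocount of 16, so its log2 value understates the difference and rests on dim signals. The summed signal of the 18 late pollen genes outside the 43 was 416.6, 896.1 and 339.0 on overexpressor arrays a, b and c, against 6897, 3984 and 2813 in wild type, highest on overexpressor array b and on wild-type array a, as for the 43. The part of these markers in the values of the 43 was not tested.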

How the data were processed

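Each of the 6 arrays gave 1 intensity per probe set, deposited by the authors on a linear scale and already scaled to about the same trimmed mean. The sources used here do not give the array design, software or scaling method. Here log2(signal + 16) was computed without further normalisation. The 64 control probe sets and the dimmest 25% of the others (5687) were left out, and 17059 were fitted with limma 3.58.1 in R 4.3.3, calling an adjusted p (Benjamini-Hochberg) under 0.05. The step was tested on simulated data with noise drawn separately for each probe set and array. That test does not cover arrays or probe sets that deviate together. Tables used pandas 2.3.3 and numpy 2.4.6, and figures matplotlib 3.10.9.

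The members and lists were chosen with earlier results of these data known. Every member with 1 gene was named. All array values were printed for the 12 highest wild-type means, the 5 largest and 5 smallest percentages left, and members that share a gene family. A gene with several probe sets was represented by the one with the highest mean. Gene names come from a platform annotation, and gene order from the RefSeq table of TAIR10.1. Promoter and protein features were not analysed here.

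Arrays with the same letter deviated together from their group means (correlations 0.57 for a, 0.36 for b and 0.38 for c, and at most 0.10 between letters), so the letters were taken to pair the arrays, a hint from the data that the labels do not state. Blocking on the letter called 570 lower, against 370 without it. Unless the block is named, the calls and adjusted p given here come from the fit that does not use this pairing. The number of arrays limits the precision.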

Additional observations from a re-analysis of the deposited data

Results flagged for a closer look

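Among the array's controls, which enter no comparison, that for 25S ribosomal RNA read 3079.6 on overexpressor array a, 29.6 on b and 51.2 on c, against 19.3, 11.1 and 32.6 on wild-type arrays a, b and c. It stands out because 1 array lies far above all 3 wild-type arrays. Its part in the values of the 43 probe sets on that array was not tested, and without overexpressor replicate a the rule picked 41 probe sets, all of them among the 43.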

How the results depend on the processing

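The rule picked 43 probe sets. It picked 95 with a minimum of 500, 20 with a minimum of 2000, 27 without both arrays lettered a, and 29 to 50 when 1 array was left out. The median percentage left lay between 3.89% and 11.2% when 1 array was left out, and was 9.08% with the replicate block. Overexpressor replicate b weighed most: without it the members' own percentages lay between 1.51% and 16.2%, a median of 2.12 times below their values from all arrays. In some alternative 3 members passed 25%. Over all probe sets 370 were lower and 23 higher. The counts were 209 and 13 with a pseudocount of 1, 570 and 71 with the replicate block, 84 and 9 without both arrays lettered a, and 30 to 386 and 0 to 16 when 1 array was left out. With the lowest 50% left out 180 were lower. The 0 higher calls came without wild-type replicate b by limma, where 345 had an unadjusted p under 0.05. Of the late pollen genes 16 were lower, 14 of them outside the 43. These counts were 7 and 6 with a pseudocount of 1, 10 and 8 with no filter, 9 and 7 with the lowest 50% left out, 0 and 0 without both arrays lettered a, and 0 to 14 and 0 to 12 when 1 array was left out. With a pseudocount of 64, 9 outside the 43 were lower. The counts outside the 43, the choice by 2 letters and the alternatives for ADPG1 were added after seeing the data. AGL65, at -0.12, turned to 0.04998 without wild-type replicate a (lowest -0.22 with 1 array left out) and to 0.0178 without both arrays lettered a. The cause was not tested. The motif alternative was not run. Dim signals, below the pseudocount, limit how far a reduction can be read.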
